A study of Mus musculus with 8 samples.

Results

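Plasma protein genes were followed here in developing mouse pancreas. The 10 genes Alb, Afp, Apoa1, Apoa2, Apob, Apoh, Trf, Ttr, Rbp4 and Ambp were taken by symbol, each from its only singly named probe set, out of 19938 genes measured on Affymetrix mouse gene arrays. They were chosen by symbol with earlier results of these data known, and selected on the measured differences between VEGF buds and control buds above all, so their values in that comparison are a description. All 10 encode proteins that the liver secretes into blood. They were separated into 7 liver-typical genes, Alb to Trf in the order above, and 3 islet-expressed genes, Ttr, Rbp4 and Ambp. Ttr and Rbp4 are known to be made by pancreatic islet cells as well as by liver, and Ambp was put beside them because of its values in earlier results.

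There were 4 pools of RNA. The VEGF pool held pancreatic buds of 3 embryos at e12.5 that carried Pdx1-tTA and TET-VEGF. In these embryos the promoter of the pancreatic factor Pdx1 drives a tetracycline transactivator, which switches on a VEGF transgene in the Pdx1 territory. The control pool held buds of 3 littermates with Pdx1-tTA alone, so the transactivator was present in both bud pools. The other pools came from wild-type e12.5 buds explanted and cultured 2 days in vehicle or in VEGFR2i, an inhibitor of VEGF receptor 2, with 5 per pool. Each pool was hybridized to 2 arrays, an array and its technical repeat, 8 arrays in all. A condition is therefore 1 pool, no test of a condition exists, and each SD (n = 2 arrays) covers technical error only. Values are log2 expression after robust multi-array averaging (RMA) by the authors. The size rule calls a gene higher or lower where 1 pool mean is 1.5-fold or more above the other (a log2 difference of 0.585). The arrays of the pools must also not overlap. Absence of overlap alone, between 2 technical arrays per pool, was not counted over all genes. Where it is given without the rule, it describes the arrays only.

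The liver begins to make plasma proteins early in the embryo, starting with alpha-fetoprotein and going on to albumin and the apolipoproteins, and the yolk sac endoderm makes many of the same proteins. Liver and ventral pancreas arise side by side from the foregut endoderm and share transcription factors such as those of the forkhead family. Transthyretin and retinol-binding protein travel together in plasma, where they carry thyroid hormone and vitamin A, and both are also products of endocrine cells of the pancreas.

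The array medians lay between 4.08 and 4.12 in the buds and between 4.29 and 4.33 in the explants, and the arrays of a pool correlated at 0.997 to 0.998 across probe sets. Over the 40 pairs of arrays from a gene and its pool, the median gap between arrays for the 10 genes was 0.06 and the highest was 0.58, for Apoa1 in the explants labelled VEGFR2i. The explant pools went against their labels in the endothelium: all 10 endothelial genes examined were higher in the pool labelled VEGFR2i, among them Cdh5, the cadherin of endothelial junctions (8.66 ± 0.02 against 4.56 ± 0.23 in the pool labelled vehicle), Pecam1 (7.70 ± 0.20 against 4.31 ± 0.05) and Kdr, which encodes VEGF receptor 2 (8.12 against 6.02). That direction is opposite to the known action of such an inhibitor, so the explant pools are named by their labels only and no direction between them is read as an effect of the inhibitor.

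The sequences just upstream of Apoa2 and Rbp4 are shown because both match TNTTTAC, a loose form of the forkhead core with any base at N. The genes went in opposite directions in VEGF buds, Apoa2 higher and Rbp4 lower. They are the 250 bases before the start of the RefSeq gene (GRCm38.p6), 5′ to 3′ on the strand of the gene: Apoa2 from chr1:171221314-171221563 (plus strand) and Rbp4 from chr19:38125322-38125571 (minus strand). Capitals mark the match to TNTTTAC, which lies on the opposite strand in both. It reads TGTTTAC in Rbp4 and TCTTTAC in Apoa2. The usual forkhead core has A or G at N, so the Apoa2 match departs from it.
Apoa2: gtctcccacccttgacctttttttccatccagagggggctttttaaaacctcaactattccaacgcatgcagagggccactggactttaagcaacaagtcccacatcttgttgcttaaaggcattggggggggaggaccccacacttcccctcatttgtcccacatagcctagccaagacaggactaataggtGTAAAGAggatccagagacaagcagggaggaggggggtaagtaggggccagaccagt
Rbp4: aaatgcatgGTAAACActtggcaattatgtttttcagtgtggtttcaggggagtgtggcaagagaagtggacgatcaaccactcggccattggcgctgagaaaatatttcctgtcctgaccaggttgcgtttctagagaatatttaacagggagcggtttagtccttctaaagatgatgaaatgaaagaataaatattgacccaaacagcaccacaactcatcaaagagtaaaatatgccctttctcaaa

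The motif was searched on both strands of the 250 bases, in the 8 members with a promoter in the RefSeq table, which were all but Trf and Ttr. It was found in 3 of the 8, Apoa2, Apoh and Rbp4, against 10.9% of 32817 upstream windows of the same length. It lies at -57 to -51 from the start in Apoa2 and at -241 to -235 in Rbp4. Such a match describes letters and is no evidence of binding.

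The comparison of VEGF buds with control buds asked what added VEGF did to gene expression in the bud. The members went in opposite directions: Alb, Afp, Apoa1 and Apoa2 were higher in VEGF buds and Ttr, Rbp4 and Ambp were lower. Of the 7 liver-typical genes, 4 were higher, none was lower and 3 did not pass the size rule, and the median difference was 0.70. All 3 islet-expressed genes were lower, with a median of -1.11. Since Ambp was placed by its earlier values, these counts restate that placing and are no support for the split. Over all 19938 genes, 1.48% passed the same rule, 0.552% as higher and 0.933% as lower, and the median difference was 0.003. In pooled tissue, more or fewer cells of a type cannot be told apart from more or less RNA per cell.

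Alb encodes albumin, the main carrier protein of plasma. It read 7.14 and 7.05 on the VEGF bud arrays and 4.80 and 4.65 on the control bud arrays. Both VEGF bud arrays lay far above both control arrays. The difference was 2.37 [2.25, 2.49 over the 4 pairs of arrays], a 5.16-fold level and the second-largest increase of all genes in this comparison. Afp encodes alpha-fetoprotein, the albumin-like protein of fetal plasma. It read 9.02 and 8.99 in VEGF buds and 8.25 and 8.31 in control buds, a difference of 0.72 [0.68, 0.77] or 1.65-fold. Afp was thus higher with no overlap between the arrays, by a smaller step than its neighbour Alb.

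Apoa1 and Apoa2 encode the main proteins of high-density lipoprotein. Apoa1 read 5.37 and 5.44 in VEGF buds and 4.63 and 4.70 in control buds, a difference of 0.74 [0.67, 0.81] or 1.67-fold. Apoa2 read 4.66 and 4.80 in VEGF buds and 4.07 and 4.01 in control buds, a difference of 0.70 [0.60, 0.79] or 1.62-fold. Neither overlapped between the pools. Apoa2 was dim, below the array median on 6 of 8 arrays, where RMA compresses differences.

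The remaining liver-typical genes stayed within the size rule. Apob, the structural protein of low-density lipoprotein, read 3.75 and 3.59 in VEGF buds and 3.31 and 3.36 in control buds, a difference of 0.34 [0.24, 0.44] without overlap. Apoh, which binds phospholipids in plasma, read 3.14 and 3.04 in VEGF buds and 3.06 and 3.03 in control buds, and these ranges overlapped. Both genes lay below the array median on all 8 arrays, so a change in them may not be measurable here. Trf encodes transferrin, the iron carrier of plasma. It read 7.77 and 7.62 in VEGF buds and 8.11 and 8.16 in control buds, a difference of -0.44 [-0.54, -0.33], which has the opposite sign to the other liver-typical genes. Apoa2 at 0.70 was thus the called member nearest to the limit of 0.585 and Trf the uncalled member nearest to it.

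The islet-expressed genes lay above the array median on all 8 arrays. Ttr encodes transthyretin, the plasma carrier of thyroid hormone. It read 9.59 and 9.56 in VEGF buds and 10.67 and 10.70 in control buds. The difference was -1.11 [-1.14, -1.08], or 2.16-fold lower. The gap between arrays of the same pool was far smaller, but it covers technical error only and is no measure for a difference between pools. Rbp4, the retinol-binding protein that travels with transthyretin, read 8.23 and 8.18 in VEGF buds and 9.52 and 9.35 in control buds, a difference of -1.23 [-1.34, -1.12] or 2.35-fold lower. It ranked 21 and Ttr 25 among all genes from the most negative difference. Ambp encodes the precursor of alpha-1-microglobulin and bikunin, a protease inhibitor. It read 9.32 and 9.25 in VEGF buds and 10.11 and 10.08 in control buds, a difference of -0.81 [-0.86, -0.76] or 1.75-fold lower. All 3 genes had both VEGF bud arrays below both control arrays, which the size rule requires of any gene called lower.

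**Figure D1:**
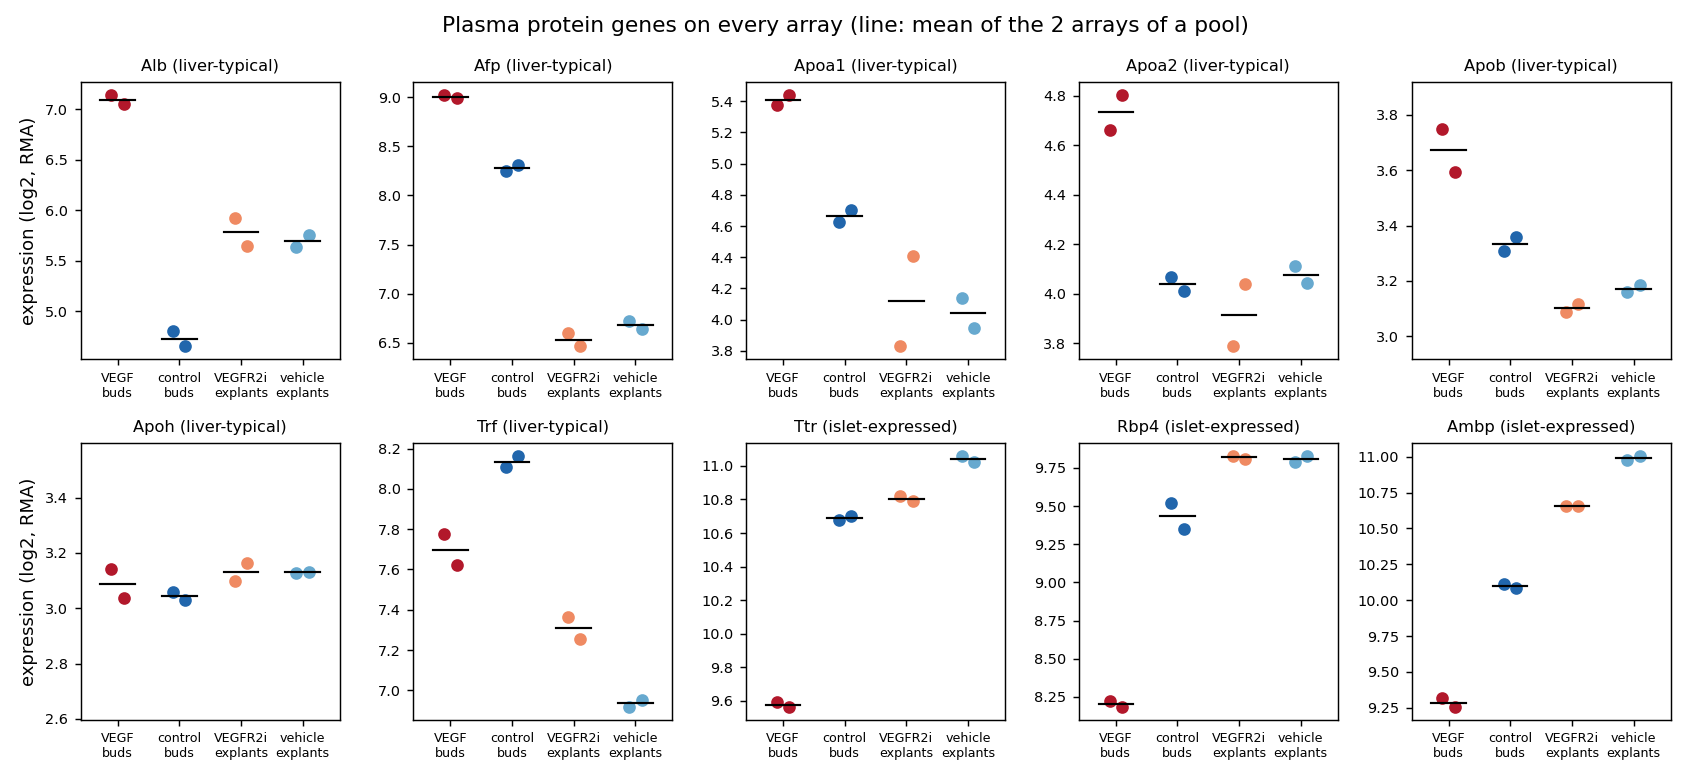
Each panel shows 1 plasma protein gene, with log2 expression (RMA) on the vertical axis and the 4 pools along the horizontal axis; points are arrays and lines are the means of the 2 arrays of a pool, and each panel has its own vertical scale. Alb, Afp, Apoa1 and Apoa2 are highest in VEGF buds, and Ttr, Rbp4 and Ambp are lowest there.

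In the explants 0 of 10 members passed the size rule, against 2.19% of all genes. By direction, 1.82% of all genes were higher and 0.371% were lower in the explants labelled VEGFR2i. The median difference was 0.00 over the 7 liver-typical genes and -0.24 over the 3 islet-expressed genes. Alb read 5.92 and 5.65 in the pool labelled VEGFR2i and 5.64 and 5.75 in the pool labelled vehicle, and these overlapped. Apoa1 overlapped too, at 3.83 and 4.41 in the pool labelled VEGFR2i and 4.14 and 3.95 in the pool labelled vehicle. It was dim there, below the array median on 3 of 8 arrays, all of them explant arrays, so a change may not be measurable. These explant differences of Alb (0.09 [-0.10, 0.28]) and Apoa1 (0.08 [-0.31, 0.46]) were smaller than the spread between arrays of a pool.

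Rbp4 was nearly level in the explants, with 9.83 and 9.81 in the pool labelled VEGFR2i and 9.79 and 9.82 in the pool labelled vehicle, which gives a difference of 0.01 [-0.02, 0.04]. Ttr and Ambp differed a little without overlap. Ttr read 10.82 and 10.79 in the pool labelled VEGFR2i and 11.06 and 11.02 in the pool labelled vehicle, which gives a difference of -0.24 [-0.27, -0.20]. Ambp read 10.66 on both arrays of the pool labelled VEGFR2i and 10.97 and 11.01 in the pool labelled vehicle, which gives a difference of -0.33 [-0.35, -0.31]. Trf had the largest positive difference of the 10 genes there. It read 7.36 and 7.25 in the pool labelled VEGFR2i and 6.92 and 6.95 in the pool labelled vehicle, which gives a difference of 0.37 [0.30, 0.45]. Afp differed by -0.15 [-0.26, -0.05], Apoa2 by -0.16, Apob by -0.07 and Apoh by 0.00.

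**Figure D2:**
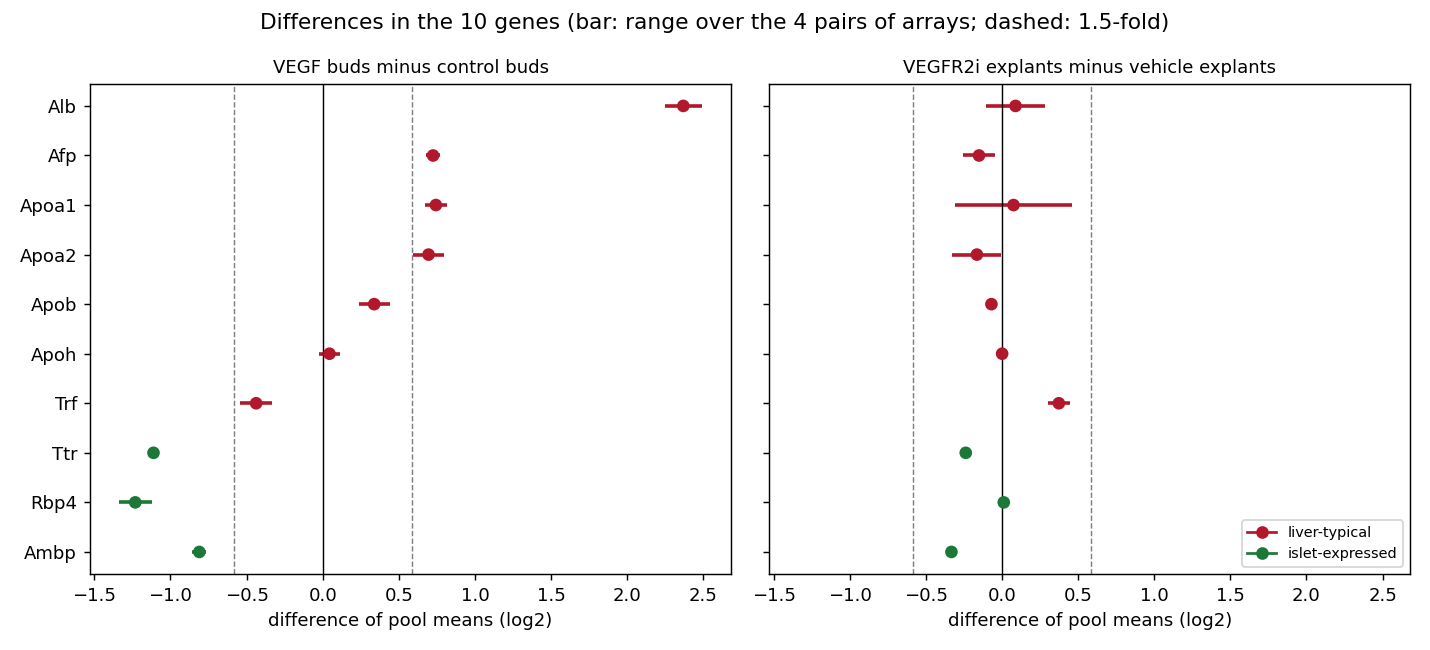
Points are differences of pool means on the log2 scale for the 10 genes, VEGF buds minus control buds on the left and VEGFR2i explants minus vehicle explants on the right; bars span the 4 pairs of arrays, dashed lines mark 1.5-fold and colours separate liver-typical from islet-expressed genes. In the buds Alb stands at 2.37 and Rbp4 at -1.23, while in the explants all 10 genes lie between the dashed lines.

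Levels were also ordered across the 4 pools. Buds and explants may have been normalized separately, and the median over all genes of vehicle explants minus control buds was 0.17. Ttr and Ambp had the same order, the pool labelled vehicle highest, then the pool labelled VEGFR2i, the control buds and the VEGF buds, each step without overlap. Rbp4 had the same order except that its explant pools overlapped. Ambp was higher in the pool labelled vehicle than in the control buds by 0.89, Rbp4 by 0.37 and Ttr by 0.35. With all 8 arrays set to 1 distribution, an alternative added after the data were seen, these became 0.58, 0.07 and 0.07, so the steps of Rbp4 and Ttr between control buds and vehicle explants largely depend on the scaling.

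The liver-typical genes did not share 1 order. Afp was lower in the pool labelled vehicle than in the control buds by a difference of -1.60 (-1.94 with all arrays on 1 distribution) and Apoa1 by -0.62 (-0.95). Alb went the other way, at 0.97 above the control buds in the pool labelled vehicle (0.58 with all arrays on 1 distribution), and its explant pools overlapped each other and lay between the bud pools. Trf was the only liver-typical gene with its highest level in control buds (8.14 ± 0.04), followed by VEGF buds (7.70 ± 0.11), the pool labelled VEGFR2i (7.31 ± 0.08) and the pool labelled vehicle (6.94 ± 0.03), all apart. Apob was highest in VEGF buds and lowest in the pool labelled VEGFR2i, with every step apart but all levels dim, and Apoh overlapped at every step. Apoa2 was highest in VEGF buds; its control buds overlapped with each explant pool, while the explant pools lay just apart from each other.

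Genes with the most similar pattern were sought for Alb, Ttr and Rbp4, by the root mean square distance between the 4 pool means after each gene was centred on its own mean, among 18707 genes. The nearest to Ttr were Rims2, a protein of regulated exocytosis (0.12), Ghrl, the ghrelin hormone gene (0.12), and Rbp4 (0.14). The nearest to Rbp4 were Tmem132c (0.12), Gpr119, a receptor known from beta cells and gut endocrine cells (0.13), and Ttr (0.14). Ambp stood in place 18 for Ttr and for Rbp4, at a distance of 0.20 from each. Alb had no gene that close: its nearest were Irak1bp1 (0.52), Tm4sf5 (0.54) and the kinase gene Pim1 (0.54), and Apoa2 was in place 13 (0.61), Apoa1 in place 70 (0.69) and Afp in place 17380 (1.10). The pattern of Alb and Afp thus matched in the direction of the bud difference but not over the 4 pools. These distances include the bud values on which the members were selected, and Ambp was placed by earlier values. The closeness of Ttr, Rbp4 and Ambp therefore partly restates that choice and is no support for the split.

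**Figure D3:**
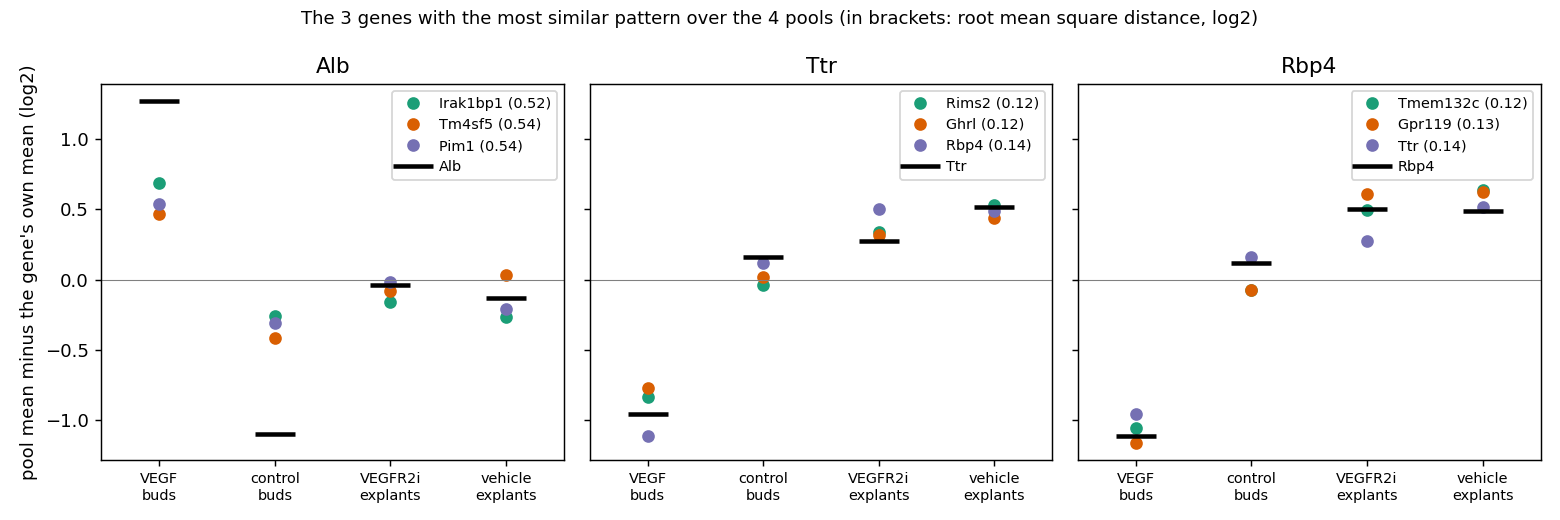
For Alb, Ttr and Rbp4 (black bars), coloured points give the 3 genes with the most similar pattern; the vertical axis is the pool mean minus the gene's own mean (log2), the horizontal axis the 4 pools, and brackets give the root mean square distance. Points sit close to Ttr and Rbp4, with distances of 0.12 to 0.14, and away from Alb in both bud pools, with distances of 0.52 to 0.54.

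Other liver plasma proteins did not rise past the size rule with Alb. Of 23 measured in a list that left out the 10 members, none was higher in VEGF buds and 1 was lower, beside backgrounds of 0.552% and 0.933%. With 0.552% of all genes higher, none higher is the usual outcome for a list of this size. The median difference was -0.02, with 8 positive and 15 negative differences, and the largest positive one was 0.40 for Apoa4. The 1 that was lower was Apoc1, an apolipoprotein of several lipoprotein classes, at 5.86 ± 0.01 in VEGF buds against 6.71 ± 0.14 in control buds, a difference of -0.86. The antiplasmin gene Serpinf2 (-0.55), the fibrinogen chain gene Fgb (-0.48) and the vitamin E carrier gene Afm (-0.42) came next without passing the rule. In VEGF buds 16 of the 23 lay below the array median, against 15 in control buds, which limits what their differences can show. Among those above it in both bud pools, Vtn (-0.35) and Apoe (-0.16) also had negative differences. Only Lcat (0.22) had a positive one there. In the explants F10, the gene of coagulation factor X, was lower in the pool labelled VEGFR2i (5.83 ± 0.01 against 6.65 ± 0.12 in the pool labelled vehicle), none was higher and the median was -0.07; Vtn, the vitronectin gene, differed by -0.53, Kng1 by -0.41 and Serpinf2 by -0.31.

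Chromosomal neighbours did not all follow the members. Afp is the next protein-coding gene after Alb in the RefSeq table and Afm the one after that. Afm, of the same albumin family, was at 5.40 ± 0.05 in VEGF buds and 5.82 ± 0.14 in control buds, with the opposite sign to Alb and Afp. On the other side of Alb, Ankrd17 differed by 0.00, Cox18 by 0.19 and Adamts3 by 0.34, none past the size rule. Apoa1 is followed by Apoc3, Apoa4 and Apoa5, its partners in a cluster on chromosome 9. Apoc3 differed by 0.09, Apoa4 by 0.40, at 3.86 ± 0.06 in VEGF buds against 3.47 ± 0.16 in control buds, and Apoa5 by -0.02, so none of these passed the rule that Apoa1 passed.

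Enzymes of hepatocytes gave little signal. Of 11 measured, 10 lay below the array median in each of the 4 pools, including the urea cycle genes Cps1 (3.24 in VEGF buds, 3.22 in control buds) and Otc (2.79 in VEGF buds, 2.81 in control buds) and the tryptophan-degrading enzyme gene Tdo2 (2.83 in VEGF buds, 2.79 in control buds). None was higher in VEGF buds and Arg1, an arginase that macrophages also make, was lower at 4.85 ± 0.01 against 5.50 ± 0.12 in control buds. Over all genes 0.552% were higher and 0.933% were lower. Hpd (-0.14), Fabp1 (0.09) and Tat (-0.06) were next in size. The summed linear level of the list was 116 to 123 on the VEGF bud arrays and 134 to 140 on the control bud arrays. Apart from Arg1, that sum holds only genes below the array median, so it says little about hepatocytes in either pool. In the explants none of the 11 passed the rule and the median was -0.01; Tat (-0.17), Fabp1 (-0.11), Arg1 (0.10) and Hpd (0.05) differed most.

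Red cell genes moved with Alb in the buds. Of 12 measured, 6 were higher in VEGF buds and none was lower, beside backgrounds of 0.552% and 0.933%. All 12 differences were positive, with a median of 0.73. Their summed linear level was 8446 to 8562 on the VEGF bud arrays against 5691 to 5825 on the control arrays. It was only 409 to 417 in the pool labelled vehicle. Alb, in contrast, was higher there than in the control buds by 0.97 (0.58 with all arrays on 1 distribution). The embryonic globin Hbb-bh1, one of a family of similar genes, was at 7.46 ± 0.00 in VEGF buds against 5.74 ± 0.02 in control buds, and the anion exchanger Slc4a1, Rhag and Kel differed by 1.37, 1.13 and 1.03. Of 10 endothelial genes, 4 were higher and none was lower, beside the same backgrounds. The list had a median of 0.55 and a summed level of 4033 to 4167 in VEGF buds against 2595 to 2608 in control buds. Cd34 differed by 1.02, Flt1 by 0.90, Kdr by 0.75 and Emcn by 0.60. The part of red cells and endothelium in the values of Alb and the other liver-typical genes was not tested. In the explants, the pool labelled VEGFR2i was higher in all 10 endothelial genes and in the globin genes Hbb-y (2.23) and Hba-x (1.62), while Alb overlapped between the pools; Epb42 (0.32) and Hbb-bh1 (0.21) were the next red cell genes.

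None of 12 stomach and intestine genes passed the rule in the buds, and their median was 0.00. Barx1, a factor of stomach mesenchyme, differed by 0.41, the villin gene Vil1 by -0.33, Tff1 by 0.18 and Nkx2-3 by 0.16. In the explants Tlx1, a factor of spleen development, was higher by 0.95 and was the only gene of that list past the rule, ahead of Nkx2-3 (0.35), Vil1 (-0.27) and Barx1 (0.25).

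Endocrine genes moved with Ttr, Rbp4 and Ambp in the buds. Of 21 measured, 15 were lower in VEGF buds and none was higher, with a median of -0.85, beside a background of 0.933% lower. Neurog3, which commits progenitors to the endocrine lineage, was at 4.45 ± 0.26 in VEGF buds against 7.08 ± 0.08 in control buds, and the granule protein gene Scg3 (-1.85), the transcription factor gene Rfx6 (-1.79) and the granin gene Chga (-1.76) followed. Ghrl, which resembled Ttr over the pools, differed by -0.79 and the glucagon gene Gcg by -1.37. The summed linear level of the list was 2686 to 2811 on the VEGF bud arrays and 6755 to 6802 on the control arrays. In the explants only Slc30a8, the zinc transporter of insulin granules, was lower (-0.70), and Iapp (-0.48), Scg3 (-0.41) and Sst (-0.38) came next; the list's median was -0.08 and Rbp4 was level between the pools.

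Genes of the pancreatic epithelium were lower in VEGF buds as well, 8 of 15 with none higher and a median of -0.64. The backgrounds were 0.933% lower and 0.552% higher. Muc1, a mucin of the apical surface, differed by -1.005, the progenitor factor gene Nkx6-1 by -0.94, the splicing regulator Esrp1 by -0.78 and the tight junction gene Cldn7 by -0.73. Their summed level was 4050 to 4218 in VEGF buds against 6239 to 6262 in control buds. Pdx1, whose promoter drives the transactivator, was at 6.38 ± 0.17 in VEGF buds and 6.96 ± 0.09 in control buds and was just short of the rule. How much of the lower Ttr, Rbp4 and Ambp goes with the lower endocrine and epithelial genes was not tested. In the explants none of the 15 passed the rule, the median was -0.17, and Ptf1a (-0.58), Muc1 (-0.40), Krt18 (-0.25) and Cldn7 (-0.24) differed most.

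Transcription factors known to regulate liver plasma protein genes did not rise past the size rule with Alb. Of 16 measured, 3 were lower in VEGF buds and none was higher, beside backgrounds of 0.933% and 0.552%. With 0.552% of all genes higher, none higher is the usual outcome for a list of this size. The median was -0.20, with 15 negative differences. The 3 lower genes were Prox1, Hnf4a and Onecut1. Prox1, which acts in both liver and pancreas, was at 7.52 ± 0.04 in VEGF buds against 8.24 ± 0.07 in control buds. Hnf4a, a nuclear receptor that controls many apolipoprotein genes, was at 5.47 ± 0.23 against 6.19 ± 0.21, and Onecut1 at 7.24 ± 0.01 against 7.89 ± 0.05. Nr5a2 differed by -0.54, Zbtb20 by -0.53, Foxa3 by -0.48 and Foxa2 by -0.41. How much of this goes with the lower epithelial genes was not tested. In the explants none of the 16 passed the rule and the median was -0.10; Gata4 (-0.52), Tbx3 (0.42), Hnf4g (-0.39) and Foxa1 (-0.38) differed most.

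Receptors and partners of the plasma proteins showed 1 change among 15 measured in the buds, beside 1.48% of all genes. Lrp2, or megalin, the uptake receptor that takes up retinol-binding protein, albumin and transthyretin in the kidney, was higher at 5.43 ± 0.04 in VEGF buds against 4.71 ± 0.04 in control buds, a difference of 0.72. The median of the list was -0.02. Abca1, the lipid exporter that loads apolipoprotein A-I, differed by -0.42, and Itih2, a heavy chain that is joined to the bikunin made from Ambp, by 0.38. Mttp, which loads lipid onto the Apob protein, differed by -0.20, and Stra6, the cell receptor for the Rbp4 protein, was at 6.15 ± 0.06 in VEGF buds and 6.17 ± 0.10 in control buds. In the explants none passed the rule and the median was -0.06; Itih2 (-0.31), Lrp1 (0.20), Amn (-0.20) and Rbp2 (-0.18) differed most.

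**Figure D4:**
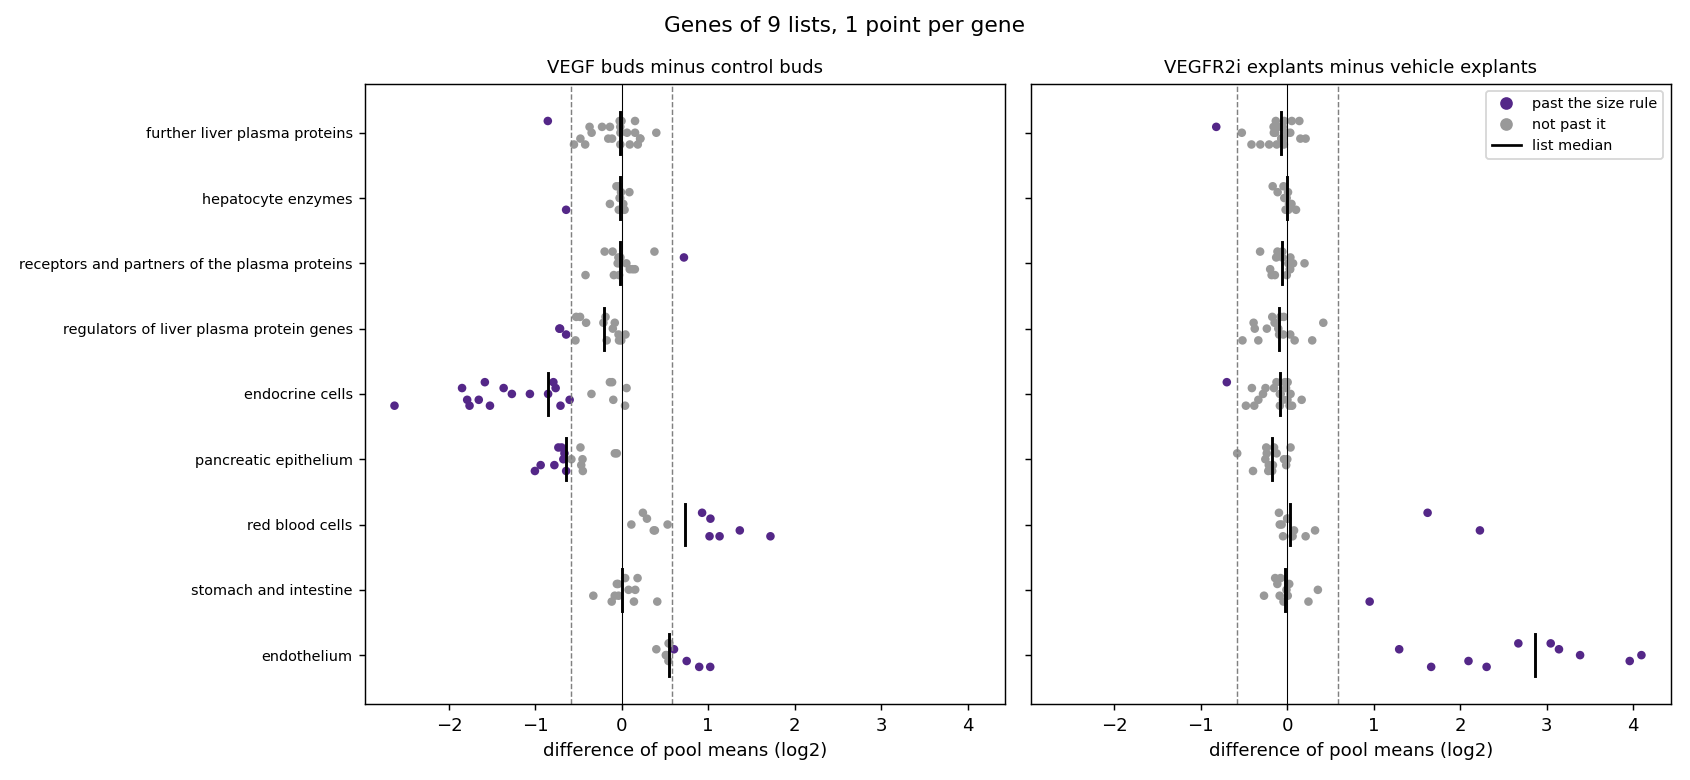
Each point is a gene of 1 of 9 lists, with the difference of pool means (log2) on the horizontal axis, VEGF buds minus control buds on the left and VEGFR2i explants minus vehicle explants on the right; purple points passed the size rule, grey ones did not, black bars are list medians and dashed lines mark 1.5-fold. In the buds the endocrine and epithelial lists lie to the left and red cell and endothelial lists to the right, with medians of -0.85, -0.64, 0.73 and 0.55, while further liver plasma proteins have a median of -0.02.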

How the data were processed

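RNA of 4 pools was hybridized to 8 arrays, 2 per pool, and samples were grouped by their labels. The log2 values were used as deposited: per the labels and the series' design text, the authors ran RMA in version 6.5 of Partek Genomic Suite, and the range of 2.41 to 13.57 shows a log2 scale. The sources used here do not say whether buds and explants were normalized together.

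Of 35399 probe sets, 21789 had 1 gene symbol in the platform annotation, 1621 had several and 11989 were not listed; the highest-mean probe set stood for a gene, giving 19938 genes. Differences of pool means were computed with Python 3.11.15, pandas 2.3.3 and scipy 1.17.1, and the size rule was tested on simulated data. Of 152 genes in 9 lists, 135 were measured. The members and lists were chosen with earlier results of these data known. Named genes were the 10 members, Pdx1, 3 endothelial genes, the 3 nearest patterns of Alb, Ttr and Rbp4, and up to 4 genes per list with the largest differences. Gcg, Ghrl in its list, Otc, Cps1, Tdo2, Foxa2, Foxa3, Zbtb20, Stra6 and the chromosomal neighbours were chosen after their values were seen. So were Apoe, Lcat and, for the buds, Vtn. Promoter sequences are from RefSeq (GRCm38.p6). Alternatives were leaving out each array, quantile normalization of 4 or 8 arrays, median centring, averaged probe sets, a 2-fold limit, a filter on dim genes and the t-test that the methods name. The number of arrays limits the precision.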

Additional observations from a re-analysis of the deposited data

How the results depend on the processing

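No paired analysis was possible because each group is 1 pool and its replicate numbers mark technical repeats. The 7 members past the size rule in the buds and the 0 in the explants kept their number in each 1.5-fold alternative run on the members. Those were leaving out each array, quantile normalization, median centring and averaged probe sets. The filter on dim genes and the t-test were run over all genes only. At 2-fold, added after the data were seen, 3 remained in the buds (Alb, Ttr and Rbp4). Over 160 recomputed member differences no call changed, none changed sign among the called ones, and 4 moved by more than the spread between arrays. Leaving out an array always moves a pool mean by less than that spread. It also cannot make the arrays of a called gene overlap. Only quantile normalization and median centring could therefore count as moved, and all 4 came from these. Over all genes the counts of 296 in the buds and 437 in the explants became 50 and 133 at 2-fold, and ranged from 300 to 337 and from 428 to 483 with 1 array left out. The methods' t-test over arrays, which measures hybridization error only, gave 271 and 405 genes unadjusted and 0 and 1 after Benjamini-Hochberg adjustment. All members have 1 probe set, so averaging probe sets could not change them. With 1 pool per condition, other differences between pools cannot be told apart from the condition, and genes below the array median, such as Apob and Apoh, can hide change.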
